A study of Mus musculus with 6 samples.

Results

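The 10 genes described here carry the calcium signal of activated T cells from the endoplasmic reticulum to the nucleus: Stim1, Stim2 and Orai1 for calcium entry, Itpr1, Itpr3 and Ryr1 for release from stores, Nfatc1, Nfatc2 and Nfatc3 for transcription, and Rcan1 for feedback on calcineurin. They were taken by symbol from the 56941 genes of the count table, and all 10 were present and had enough counts to be tested. The list is one of gene names, but it was chosen with earlier results of these data known, and Ryr1 is shown in a heat map that the study drew from these samples. The question was whether S1P (sphingosine-1-phosphate), a lipid that signals through S1PR1, altered the transcripts of this pathway in CD8+ T cells.

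RNA was sequenced from 3 vehicle-treated and 3 S1P-treated samples. The cells came from spleens of B6 mice and were labelled as purified naive CD8+ T cells, while the methods of the study also name total splenocytes as a starting population for such cultures. All 6 cultures were activated on plates coated with anti-CD3 and anti-CD28 for 3 days with rIL2 at 100 U/ml, and received S1P at 5 µM or vehicle 24 h after the start of activation. No age or sex is given for these samples, which are labelled biological replicates with no animal or culture named behind each, so that p values measure the spread between these samples.

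The libraries held between 12048880 and 17384084 counts. Mitochondrially encoded transcripts took 7.80% of the counts in S1P-treated replicate 2, where the other 5 samples had 4.10% to 4.93%. This library also stood apart over all genes, with a chi-square per gene of 31.4 and 17.9 against S1P-treated replicates 1 and 3, where these differed from each other by 5.97 and pairs of vehicle-treated samples by 3.77 to 3.97. Results that turn on that library are given with and without it. The labelled cell type was checked against marker genes. Cd8a, which encodes a chain of the CD8 coreceptor, had normalised read counts between 3058 and 3694 in vehicle-treated samples and between 1944 and 2122 in S1P-treated samples, and was called lower (log2 ratio -0.67). Of the 8 markers on the CD8 T cell list, Cd8b1, the other CD8 chain, was called lower as well (-0.55) and Cd2 higher (0.33). Cd3d (-0.28), Cd3g (-0.21), Trac (-0.075), Cd5 (0.067) and Cd3e (0.15) were not called. The summed count of this list was between 23764 and 25404 in vehicle-treated and between 22210 and 25026 in S1P-treated samples. These groups overlapped. Cd4, the coreceptor gene of helper T cells, had between 2743 and 3282 in vehicle-treated and between 2872 and 3749 in S1P-treated samples. Of the 4 CD4 T cell markers, Cd40lg (0.50) and Zbtb7b (0.37) were called higher, and their summed count was between 3380 and 4012 in vehicle-treated and between 3710 and 4706 in S1P-treated samples. All 9 B cell markers had enough counts to be tested, and their summed count was between 18376 and 22514 in vehicle-treated and between 19190.0 and 21887 in S1P-treated samples, so that the groups overlapped, while Ms4a1 and Cd22 among them were called lower. Of 9 myeloid and 5 NK cell markers, 1 and 2 had enough counts, and S100a8 and S100a9 were at 0 in all samples. The cultures therefore held transcripts of CD4 T cells and B cells beside those of CD8+ T cells, and their part in the values below was not tested.

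In T cells, engagement of the antigen receptor activates phospholipase C gamma, which produces inositol trisphosphate. Inositol trisphosphate opens its receptors (Itpr genes) in the endoplasmic reticulum, calcium leaves the store, and STIM proteins sense the emptied store and open ORAI channels in the plasma membrane. The sustained calcium signal activates the phosphatase calcineurin, which removes phosphates from NFAT proteins so that they enter the nucleus and switch on cytokine and inhibitory receptor genes. RCAN proteins bind calcineurin and can restrain it, and a transcript of Rcan1 is itself a known NFAT target.

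None of the 10 genes passed both thresholds of the comparison, 0.05 for the adjusted p and 0.3 for the size of the log2 ratio of S1P-treated to vehicle-treated samples, which the plots call the log2 fold change (edgeR, quasi-likelihood test, Benjamini-Hochberg adjustment over the 13299 genes tested). Over all tested genes, 12.7% were called higher and 10.4% lower, 23.1% in all. Stim2 passed the adjusted p with a smaller rise, and Ryr1 had the largest difference of the list, a fall that missed the adjusted p. At an unadjusted p under 0.05 there were 2 of 10 genes, Stim2 and Ryr1, in edgeR, DESeq2 and limma-voom alike, beside 40.5% of all tested genes in edgeR. DESeq2 called 0 of the 10, and limma-voom called 1, Ryr1. In bulk RNA, fewer cells of a type and less RNA per cell cannot be told apart.

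The estimates were close enough to 0 to bound most of the genes. For 7 of the 10, Nfatc1, Nfatc2, Nfatc3, Orai1, Stim1, Itpr1 and Itpr3, the whole 95% interval of the log2 ratio lay within 0.3 of 0, where this held for 17.9% of all tested genes. These intervals are per gene and unadjusted, and the values over all tested genes were not matched to the 10 genes for read count. The median log2 ratio of the 10 genes was -0.049, with 3 above 0 and 7 below, and the median over all tested genes was 0.012. The median size of the ratio was 0.0745 for the 10 genes and 0.23 over all tested genes. Groups without overlap were seen for 2 of the 10 genes and for 45.6% of all tested genes.

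**Figure D1:**
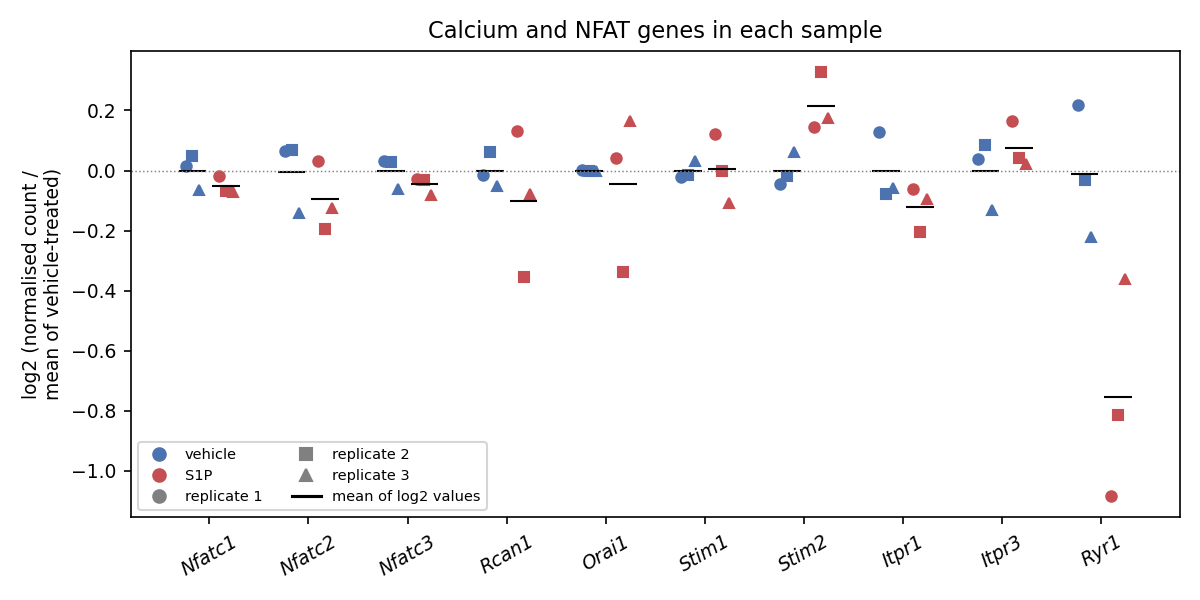
Normalised read count of each gene in each sample, as log2 of its ratio to the mean of vehicle-treated samples; colours mark the groups, symbols the replicate numbers and black lines the mean of the log2 values (n = 3 each). Only Stim2, above, and Ryr1, below, have groups that do not overlap. S1P-treated replicate 2 is the lowest of all samples for Rcan1, Orai1, Nfatc2 and Itpr1.

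Of the sensors of store calcium, Stim2 was the one with a difference past the adjusted p. STIM2 responds to smaller losses of store calcium than STIM1 and is known for sustaining NFAT activity late after activation. The normalised read count of Stim2 (ENSMUSG00000039156, chr5:54155778-54278399 of GRCm39) was 1382, 1408 and 1488 in vehicle-treated replicates 1, 2 and 3, and 1577, 1790.3 and 1608 in S1P-treated replicates 1, 2 and 3. Every S1P-treated sample was above every vehicle-treated sample, with S1P-treated replicate 2 the highest. Means were 1426 ± 55.0 in vehicle-treated and 1659 ± 115 in S1P-treated samples (SD, n = 3 each), a log2 ratio of 0.22 (SE, standard error, 0.072, edgeR adjusted p = 0.0411), or 1.16-fold with a 95% interval from 1.04 to 1.30-fold. This is under the threshold of 0.3. Without S1P-treated replicate 2 the log2 ratio was 0.16 (edgeR adjusted p = 0.0530). The adjusted p was at most 0.05 in 6 of 13 alternatives, within a range of 0.0271 to 0.188, and was above it with DESeq2, with no filter on low counts, and without S1P-treated replicate 2 or 3 or any 1 vehicle-treated sample.

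Stim1, the main sensor of store depletion in T cells, did not pass the test. Its counts (ENSMUSG00000030987, chr7:101916979-102086526 of GRCm39) were 1020.5, 1025 and 1058 in vehicle-treated and 1126, 1034 and 959 in S1P-treated replicates 1, 2 and 3. The S1P-treated samples lay on both sides of the vehicle-treated ones. Its log2 ratio was 0.0091, with a 95% interval from -0.15 to 0.17 (edgeR adjusted p = 0.941) and ranged from -0.056 to 0.056 when each sample was left out in turn.

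Orai1 encodes the pore subunit of the calcium release-activated channel, through which most calcium enters activated T cells. Its counts (ENSMUSG00000049686, chr5:123153043-123168535 of GRCm39) were 777, 775 and 775 in vehicle-treated replicates 1, 2 and 3, a SD of 0.860 around a mean of 776. S1P-treated replicates 1, 2 and 3 had 799, 614 and 869, a mean of 761 ± 131 (SD, n = 3). The S1P-treated samples thus spread on both sides of vehicle-treated samples that hardly differed, with replicate 2 low and replicate 3 high. For Orai1 the log2 ratio was -0.024, with a 95% interval from -0.26 to 0.21 (edgeR adjusted p = 0.887). Without S1P-treated replicate 2 its sign turned, to 0.10 (edgeR adjusted p = 0.275).

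**Figure D2:**
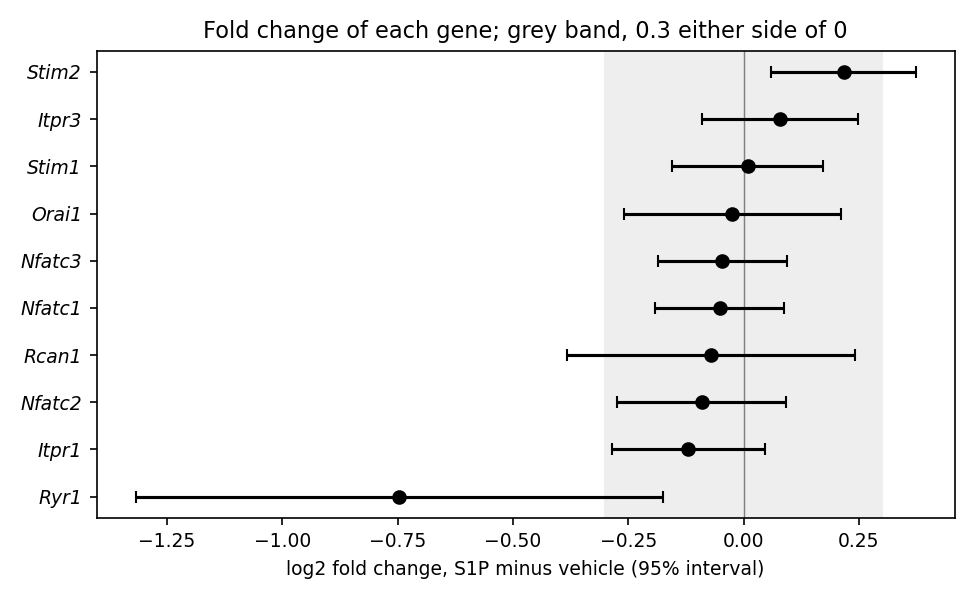
Log2 ratio of each gene, S1P-treated minus vehicle-treated (x axis), with its 95% interval from edgeR; genes are ordered by their estimate and the grey band spans 0.3 either side of 0. The intervals of 7 genes lie inside the band, that of Stim2 runs from 0.06 to 0.37, and that of Ryr1 from -1.32 to -0.17.

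Neither inositol trisphosphate receptor gene of the list passed the test. Itpr1 (ENSMUSG00000030102, chr6:108190048-108528070 of GRCm39) had counts of 1673, 1452 and 1471 in vehicle-treated and 1467, 1328 and 1434 in S1P-treated replicates 1, 2 and 3. The groups overlapped, and vehicle-treated replicate 1 stood above the other samples. Its log2 ratio was -0.12 (edgeR adjusted p = 0.266) with a 95% interval from -0.29 to 0.047, and was -0.054 without vehicle-treated replicate 1. Itpr3 (ENSMUSG00000042644, chr17:27275971-27343866 of GRCm39) had counts of 1221, 1259 and 1084 in vehicle-treated and 1332, 1224 and 1206 in S1P-treated replicates. These groups overlapped too. Itpr3 had a log2 ratio of 0.079, with a 95% interval from -0.090 to 0.25 (edgeR adjusted p = 0.475), and was 0.015 without vehicle-treated replicate 3 and 0.031 when S1P-treated replicate 1 was left out. Of its exon bases, 8.15% lie under genes of the opposite strand.

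Ryr1 encodes a ryanodine receptor, a release channel best known from skeletal muscle. It was by far the lowest of the 10 genes and the one with the widest interval. Its counts before scaling were between 35 and 53 in vehicle-treated and between 17 and 26 in S1P-treated samples. The normalised read counts of Ryr1 (ENSMUSG00000030592, chr7:28702769-28824604 of GRCm39) were 45.0, 37.8 and 33.2 in vehicle-treated and 18.2, 22.0 and 30.1 in S1P-treated replicates 1, 2 and 3. All S1P-treated samples lay below all vehicle-treated samples, with S1P-treated replicate 3 close to vehicle-treated replicate 3. The mean was 38.7 ± 5.98 (SD, n = 3) in vehicle-treated and 23.4 ± 6.05 (SD, n = 3) in S1P-treated samples, for a log2 ratio of -0.75 (SE 0.26, edgeR adjusted p = 0.0517). The 95% interval, from 0.401 to 0.886-fold, held sizes on both sides of the threshold of the log2 ratio.

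Whether Ryr1 passed depended on the setting. It passed both thresholds in 4 of 13 alternatives: with limma-voom, with no filter on low counts, with at least 10 counts in every sample, and without S1P-treated replicate 3. The log2 ratio stayed below 0 in all 13 alternatives, from -0.97 without S1P-treated replicate 3 to -0.57 when S1P-treated replicate 1 was left out, and the adjusted p ranged from 0.0371 to 0.185. Of its exon bases, 6.62% lie under genes of the opposite strand.

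The NFAT genes of the list had log2 ratios between -0.0905 and -0.046, and none passed the test. NFAT proteins are held in the cytoplasm by phosphorylation and act in the nucleus once calcineurin has removed it, and Nfatc1 is in addition transcribed more after activation. The normalised read counts of Nfatc1 (ENSMUSG00000033016) were 4192, 4289.9 and 3969.7 in vehicle-treated and 4099.7, 3956 and 3954 in S1P-treated replicates 1, 2 and 3. The groups overlapped within a narrow range. For Nfatc1 the log2 ratio was -0.052, with a 95% interval from -0.19 to 0.089 (edgeR adjusted p = 0.583), so that a rise of more than 1.06-fold or a fall below 0.875-fold lies outside the interval.

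Nfatc2, an NFAT gene that resting T cells express, had counts (ENSMUSG00000027544, chr2:168318330-168443693 of GRCm39) of 1317, 1321 and 1141 in vehicle-treated and 1287, 1101 and 1155 in S1P-treated replicates. Its log2 ratio was -0.0905, with a 95% interval from -0.27 to 0.0925 (edgeR adjusted p = 0.449), and was -0.040 without S1P-treated replicate 2 and -0.16 without S1P-treated replicate 1 or vehicle-treated replicate 3. It was the NFAT gene with the largest spread within groups relative to its mean, and the groups overlapped. Nfatc3, also expressed in resting T cells (ENSMUSG00000031902, chr8:106785472-106857175 of GRCm39), had counts of 4023, 4019.6 and 3772 in vehicle-treated and 3863, 3855 and 3725 in S1P-treated replicates. Nfatc3 had a log2 ratio of -0.046, with a 95% interval from -0.19 to 0.093 (edgeR adjusted p = 0.626). Of its exon bases, 17.5% lie under Esrp2 on the opposite strand, and the strand setting of the counting is not given in the sources used here.

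Rcan1, the feedback inhibitor of calcineurin, had counts (ENSMUSG00000022951, chr16:92188840-92267755 of GRCm39) of 134, 142 and 131 in vehicle-treated and 148, 106 and 128 in S1P-treated replicates 1, 2 and 3. S1P-treated samples held both the highest and the lowest value. Its log2 ratio was -0.070, with a 95% interval from -0.38 to 0.24 (edgeR adjusted p = 0.750), and was 0.043 without S1P-treated replicate 2. A fall of up to 0.767-fold or a rise of up to 1.18-fold was thus not excluded by the interval.

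Rcan1 has 2 starts in RefSeq, and the counts are per gene, so that transcripts of the inner start, the one known to respond to NFAT, were not measured apart. The 250 bases before each start are shown because they differ in matches to the NFAT core motif. The window of the first start of Nfatc2 is shown because it is the other one with 3 matches among the windows examined (RefSeq, GRCm38.p6, minus strand for all, written 5′ to 3′ along the gene, with GGAAA and its reverse complement TTTCC in capitals).
Rcan1 outer start, chr16:92466170-92466419: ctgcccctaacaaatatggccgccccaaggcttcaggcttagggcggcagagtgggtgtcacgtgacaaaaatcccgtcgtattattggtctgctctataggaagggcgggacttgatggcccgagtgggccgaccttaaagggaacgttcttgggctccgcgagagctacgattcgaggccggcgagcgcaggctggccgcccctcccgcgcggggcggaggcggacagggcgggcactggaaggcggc
Rcan1 inner start, chr16:92400079-92400328: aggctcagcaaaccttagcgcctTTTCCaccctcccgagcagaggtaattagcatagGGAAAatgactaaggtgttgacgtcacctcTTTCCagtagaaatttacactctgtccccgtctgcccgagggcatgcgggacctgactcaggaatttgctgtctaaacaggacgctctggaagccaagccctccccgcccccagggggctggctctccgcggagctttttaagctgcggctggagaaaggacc
Nfatc2 first start, chr2:168601658-168601907: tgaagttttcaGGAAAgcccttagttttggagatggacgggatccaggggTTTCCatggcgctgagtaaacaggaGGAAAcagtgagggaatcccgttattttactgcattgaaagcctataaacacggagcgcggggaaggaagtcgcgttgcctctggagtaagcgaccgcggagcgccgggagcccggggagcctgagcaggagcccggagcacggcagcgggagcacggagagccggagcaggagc
The outer window of Rcan1 held 0 matches on either strand, and the inner window held 3, of which 1 was GGAAA and 2 were TTTCC. The Nfatc2 window held 2 matches to GGAAA and 1 to TTTCC. Of all 32851 windows of this length in the RefSeq table, 55.6% held at least 1 match and 6.39% at least 3. For 8 of the 10 genes 11 windows were examined, and 4 of the 11 had a match. No window of Nfatc1 or Itpr1 was examined. A match is a description of the letters and not a binding site.

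Levels were compared between genes per length, as CPM per kilobase of merged exon. Nfatc1 was the most abundant, at 36.9 ± 1.46 in vehicle-treated and 35.6 ± 0.743 in S1P-treated samples (SD, n = 3 each). In vehicle-treated samples it was followed by Orai1 at 20.1, Stim2 at 18.6, Nfatc3 at 17.8, Nfatc2 at 7.98, Stim1 at 6.75, Itpr3 at 6.72, Itpr1 at 5.67, Rcan1 at 2.50 and Ryr1 at 0.120. In that order the ranges of vehicle-treated samples overlapped for the neighbours Stim2 and Nfatc3, Stim1 and Itpr3, and Itpr3 and Itpr1, and not for the others. In S1P-treated samples Stim2 stood at 21.7 ± 1.501 and Orai1 at 19.7 ± 3.41 (SD, n = 3 each), with ranges that overlapped, and the range of Stim2 no longer overlapped that of Nfatc3. The ranges of Nfatc2 and Stim1 overlapped there as well, and those of Itpr3 and Itpr1 did not.

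**Figure D3:**
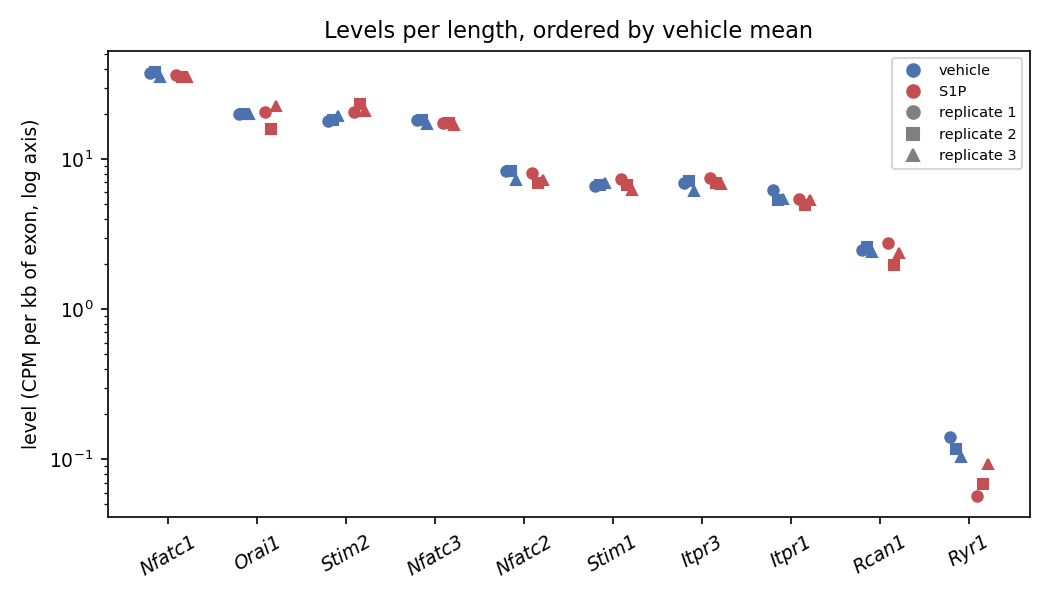
Level per length of each gene (CPM per kilobase of merged exon, log axis) in each sample, ordered by the mean of vehicle-treated samples; colours mark the groups and symbols the replicate numbers. Levels run from about 36.9 for Nfatc1 to 0.120 for Ryr1 in vehicle-treated samples, and only for Ryr1 and Stim2 do the groups stand apart.

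Within gene families, the makeup was described on the same per-length scale, with no test. Stim2 made up 73.1%, 73.3% and 73.8% of the STIM level in vehicle-treated and 73.7%, 77.6% and 77.1% in S1P-treated replicates 1, 2 and 3. S1P-treated replicate 1 lay inside the vehicle range and the other two above it. The summed STIM level did not overlap, between 24.7 and 26.3 in vehicle-treated and between 27.3 and 30.1 in S1P-treated samples. Orai1 made up 67.8 ± 1.12% of the ORAI level in vehicle-treated and 68.4 ± 4.73% in S1P-treated samples (SD, n = 3 each). Nfatc1 made up 58.9 ± 0.423% of the level of Nfatc1, Nfatc2 and Nfatc3 together and 59.0 ± 0.275% after S1P.

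The inositol trisphosphate receptors were the family in which the groups did not overlap for any share. Itpr1 made up 28.6%, 25.1% and 28.3% of the ITPR level in vehicle-treated and 22.3%, 21.0% and 23.2% in S1P-treated replicates 1, 2 and 3, and Itpr3 went from 32.3 ± 0.792% to 30.1 ± 0.741% (SD, n = 3 each). Neither share overlapped between groups, although the level of Itpr3 itself was 6.72 in vehicle-treated and 7.09 in S1P-treated samples. The summed ITPR level was between 19.3 and 21.6 in vehicle-treated and between 22.9 and 24.3 in S1P-treated samples. The remainder was Itpr2, the third receptor of the family, whose share was between 39.4% and 41.7% in vehicle-treated and between 46.7% and 49.4% in S1P-treated samples. The counts of Itpr2 rose from 1998 ± 151 to 2671 ± 100.05 (SD, n = 3 each), by 0.42 in log2 ratio (SE 0.073, edgeR adjusted p = 0.00160), and the call held in all 13 alternatives.

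**Figure D4:**
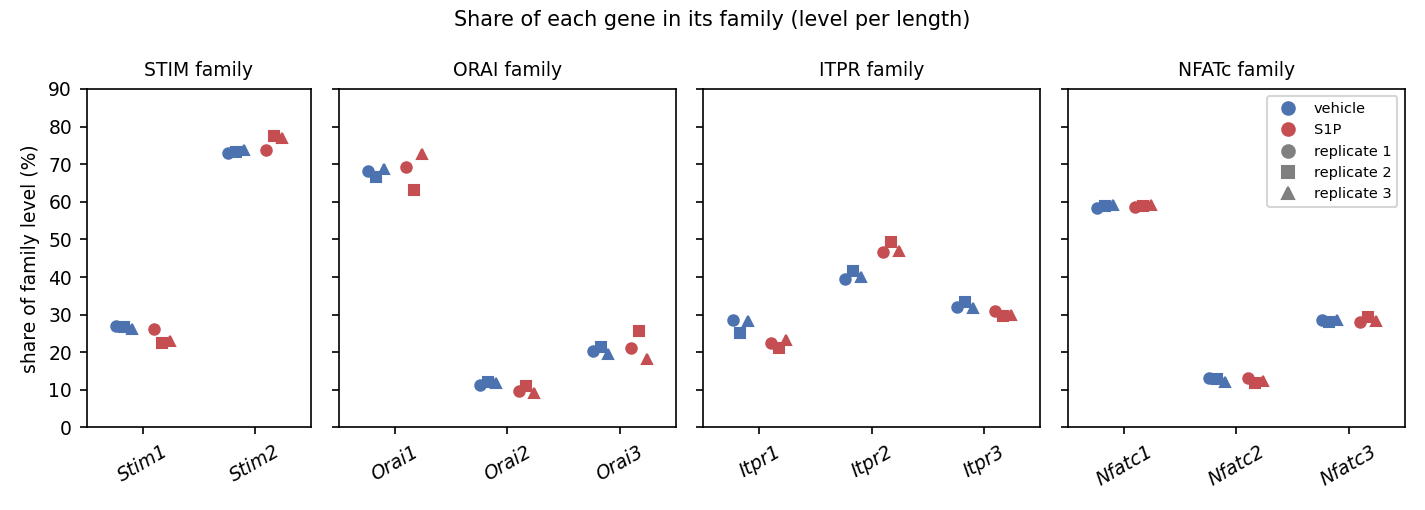
Share of each gene in the summed level per length of its family (y axis, %), in each sample; colours mark the groups and symbols the replicate numbers. The groups separate for Itpr1, Itpr2, Itpr3 and Orai2, and overlap for the NFAT genes, Orai1, Orai3 and the STIM genes.

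Other genes of the pathway were described from 6 lists of 88 genes, of which 81 had enough counts. Of these, 12 were called higher and 6 lower, 22.2% against 23.1% of all tested genes, and their median log2 ratio was 0.027. The 10 genes described above thus had 0 calls beside 18 of 81 for the genes listed around them. No difference between these counts was tested.

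In calcium entry, 1 of 12 tested genes rose and 1 fell, and Cracr2b and Tmem178 had too few counts, at most 2 in any sample. P2rx4, an ATP-gated channel, went from 195 ± 17.6 to 252 ± 37.3 (SD, n = 3 each, log2 ratio 0.37, edgeR adjusted p = 0.0490), with groups that overlapped. Its call was lost in 9 of 13 alternatives, among them leaving out any 1 sample but S1P-treated replicate 3, and it was 0.30 (edgeR adjusted p = 0.0896) without S1P-treated replicate 2. Kcnn4, the calcium-activated potassium channel that sustains the driving force for calcium, fell by 0.31 in log2 ratio (edgeR adjusted p = 0.0122). It lost its call in 4 of 13, with upper-quartile factors and without vehicle-treated replicate 2 or 3 or S1P-treated replicate 2, when it was -0.28. Without S1P-treated replicate 2, 1 gene of this list was called higher and 1 lower, neither of them P2rx4 or Kcnn4. Orai2, a channel subunit that joins Orai1, had a log2 ratio of -0.28 (edgeR adjusted p = 0.0276), under the threshold of 0.3.

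In store release and refill, 2 of 16 genes rose and 1 fell, and 3 were called higher without S1P-treated replicate 2. Atp2a2, the SERCA2 pump that refills the store, went from 6565 ± 241 to 4751 ± 202 (SD, n = 3 each), for a log2 ratio of -0.47 (SE 0.0675, edgeR adjusted p = 0.000584) that was called in all 13 alternatives. Of its exon bases, 30.3% lie under genes of the opposite strand. Beside Itpr2, Atp2b4, a pump of the plasma membrane, rose by 0.59 (edgeR adjusted p = 0.0260), with groups that overlapped and a call lost without vehicle-treated replicate 2 or 3 or S1P-treated replicate 1. Plcg1, the phospholipase C that acts below the T cell receptor, had a log2 ratio of 0.26 (edgeR adjusted p = 0.0119), also under the threshold.

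Of 9 mitochondrial calcium genes, Mcub rose and Letm1 fell, and 2 were called higher without S1P-treated replicate 3. Mcub, which encodes the subunit that restrains the mitochondrial calcium uniporter, was between 178 and 213 in vehicle-treated and between 369 and 395 in S1P-treated samples, for a log2 ratio of 0.98 (SE 0.099, edgeR adjusted p = 6.81e-05). This call held in all 13 alternatives, and 11.3% of the exon bases of Mcub lie under Casp6 on the opposite strand. Letm1, an ion exchanger gene of the inner membrane, fell by 0.37 (edgeR adjusted p = 0.00363). Mcu, the pore of the uniporter, had a log2 ratio of 0.077 (edgeR adjusted p = 0.431).

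In the calcineurin list, 2 of 13 tested genes rose and 1 fell, and Ppp3r2 and Rcan2 had too few counts, 0 in all samples for Ppp3r2 and at most 2 for Rcan2. Without S1P-treated replicate 2, 2 genes of this list were called lower. Ppp3cc, a catalytic subunit, rose by 0.36 (edgeR adjusted p = 0.00326) in all 13 alternatives, with 25.0% of its exon bases under genes of the opposite strand. Rcan3, a relative of Rcan1, rose by 0.39 (edgeR adjusted p = 0.0178) and lost its call in 4 of 13, without vehicle-treated replicate 2 or 3 or S1P-treated replicate 1 or 3. Cabin1, a calcineurin-binding inhibitor, fell from 1792 ± 44.6 to 1338 ± 103 (SD, n = 3 each), for a log2 ratio of -0.42 (edgeR adjusted p = 0.00151), also called in all 13. Of 11 tested NFAT regulators, Csnk1e, a kinase that phosphorylates NFAT, was the one called, with a rise of 0.44 (edgeR adjusted p = 0.00290), and Nfatc4, Homer2 and Nron had too few counts, at most 3, 4 and 3 in any sample.

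Of 20 genes known as NFAT targets in T cells, 5 rose and 2 fell, 35.0% of the list, where 23.1% of all tested genes were called. No difference between these shares was tested. The study shows Ifng, Il2, Tnf and Tox of this list in its heat map of these samples, so that their direction is not independent evidence. Of these, Il2 had a log2 ratio of -0.48 (edgeR adjusted p = 0.115) and Tnf one of -0.37 (edgeR adjusted p = 0.0977), with groups that overlapped, and neither was called. The study, which used DESeq2, reports Il2 and Tnf among the genes that fell significantly. With DESeq2 here, the 2 genes of the list called lower were Ifng and Pdcd1. The count of genes that rose was between 4 and 7 when each sample was left out in turn, and 4 genes fell without vehicle-treated replicate 2. The largest rise was that of Rnf128, a ubiquitin ligase linked to anergy, which had 3 or 4 counts in each vehicle-treated sample and between 10 and 28 in S1P-treated samples. Its log2 ratio of 2.49 (95% interval from 1.60 to 3.38, edgeR adjusted p = 0.00113) rests on these few counts, and it was called in all 12 alternatives run for it. Ctla4, an inhibitory receptor, rose by 0.94 (edgeR adjusted p = 0.000826) and Tnfrsf9, a costimulatory receptor, by 0.62 (edgeR adjusted p = 0.000201). The other genes that rose were Cd40lg and Tox. Cd40lg, the ligand of CD40, is also a CD4 T cell marker, and it was called higher (0.50, edgeR adjusted p = 0.0134) beside Zbtb7b, while Cd8a and Cd8b1 were called lower. Cd4 (0.10) and Foxp3 (0.023) were not called, and the summed counts of the CD4 and CD8 T cell lists overlapped between groups. The part of these markers in the list's counts was not tested. Cd40lg lost its call without vehicle-treated replicate 2 or S1P-treated replicate 3. Tox, a transcription factor of exhausted T cells, had a log2 ratio of 0.46 (edgeR adjusted p = 0.0185) and lost its call without vehicle-treated replicate 2 or 3 or S1P-treated replicate 2, when it was 0.29. Pdcd1, which encodes PD-1, fell by 0.74 (edgeR adjusted p = 0.000206), and Ifng by 0.50 (edgeR adjusted p = 0.00162).

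**Figure D5:**
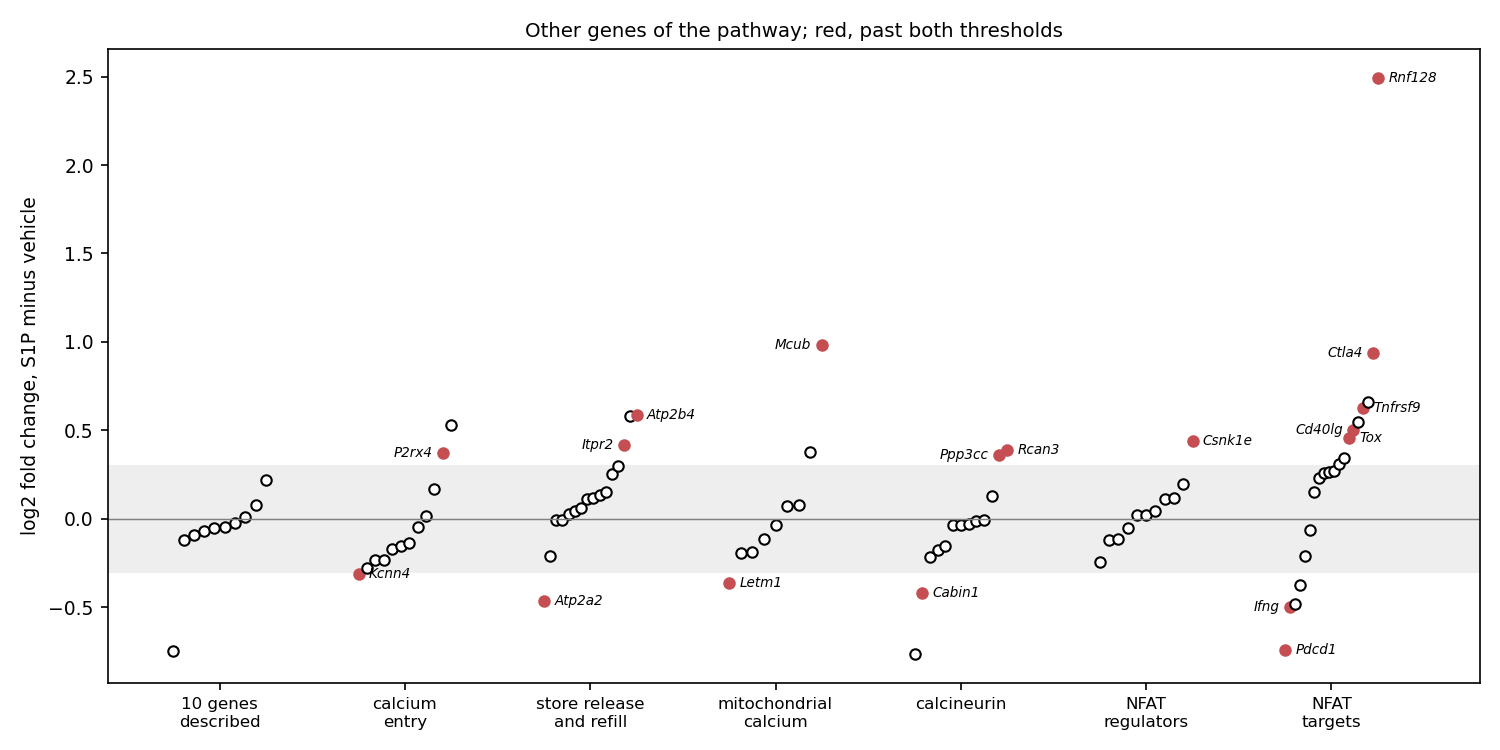
Log2 ratio, S1P-treated minus vehicle-treated (y axis), of the 10 genes described and of the tested genes of 6 pathway lists; each point is a gene, red with its name where it passed both thresholds, and the grey band spans 0.3 either side of 0. None of the 10 genes is red, and 18 genes of the lists are; the value of Rnf128 rests on 3 or 4 counts in each vehicle-treated sample.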

How the data were processed

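The authors trimmed reads of strand-specific poly(A) libraries with Trim Galore, aligned them with STAR to the mouse genome (GRCm39 in the submitters' processing notes) and used featureCounts for counting. The table deposited by the authors holds raw counts per gene. Versions, the annotation release and the strand setting are not given in the sources used here.

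Symbols, positions and merged exon lengths were taken from GENCODE vM39 (GRCm39), which holds 56323 of the 56941 identifiers. Genes were kept with edgeR's filterByExpr (13299 genes), scaled by TMM and tested by edgeR's quasi-likelihood test with treatment as the only term (edgeR 4.0.16, R 4.3.3), with p values adjusted by Benjamini-Hochberg over these genes. Calls used the study's thresholds, 0.05 for the adjusted p and 0.3 for the size of the log2 ratio. Normalised read counts are counts scaled to the mean effective library size, and the common biological coefficient of variation was 0.0826. Total counts of 12048880 to 17384084 per sample limit the precision of low genes such as Ryr1.

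Alternatives were RLE and upper-quartile factors, other filters, DESeq2 1.42.0, limma-voom (limma 3.58.1), the replicate number as a block, the adjusted p alone, and leaving out each sample in turn. The edgeR, DESeq2 and limma-voom fits were also run on simulated counts. These had the same biological coefficient of variation for all genes and no outlying library, unlike S1P-treated replicate 2 here. Of each list the text names the called genes with the largest changes, up to 3 in each direction. Orai2, Plcg1, Mcu, Il2 and Tnf, which were not called, and Cd40lg and Tox were added after their values were seen. No gene with a similar pattern is named, since that rule applied to called members. The 10 genes and the lists, written by hand from general knowledge, were chosen with earlier results of these data known.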

Additional observations from a re-analysis of the deposited data

How the results depend on the processing

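Of the 10 genes, 0 were called higher under every alternative with the threshold of 0.3, and 1, Stim2, with the adjusted p alone. The count called lower was 1, Ryr1, with no filter on low counts (log2 ratio -0.77, edgeR adjusted p = 0.0454), with at least 10 counts in every sample (-0.75, edgeR adjusted p = 0.0402) and with limma-voom (-0.76, adjusted p = 0.0453), and ranged from 0 to 1 when each sample was left out in turn. Its depth is the lowest of the 10, and its adjusted p went up to 0.185 without vehicle-treated replicate 1. Without each sample in turn, the log2 ratio ranged from -0.97 to -0.57 for Ryr1, from 0.16 to 0.25 for Stim2, from -0.20 to 0.043 for Rcan1, from -0.13 to 0.10 for Orai1, from -0.056 to 0.056 for Stim1, from -0.16 to -0.054 for Itpr1, from 0.015 to 0.12 for Itpr3, from -0.085 to -0.032 for Nfatc1, from -0.16 to -0.040 for Nfatc2 and from -0.079 to -0.033 for Nfatc3. Stim1 was at -0.020 with no filter on low counts, a setting that moved the median of all genes by -0.028. The cause of the sign changes without 1 sample was not tested, and none of these genes was called. The direction of Nfatc1, Nfatc2, Nfatc3, Stim2, Itpr1, Itpr3 and Ryr1 held in all 13 alternatives. The pathway lists held 19 higher genes with the adjusted p alone, against 12, and 8 to 14 higher and 5 to 7 lower without each sample in turn, with 8 without vehicle-treated replicate 3. Without each sample in turn, 1158 to 1736 genes were higher and 961 to 1492 lower. For the shares this was chosen after seeing the data, and the difference ranged from 1.99 to 3.94 percentage points for Stim2, from 6.48 to 7.99 for Itpr2, from -1.54 to 3.13 for Orai1 and from -0.094 to 0.32 for Nfatc1.

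Deviations from the group means had correlations of 0.12, -0.0060 and 0.048 between samples of the same replicate number, for numbers 1, 2 and 3. Between samples of unlike numbers they lay between -0.10 and 0.0496. With 3 samples per group, these values cannot tell whether samples of the same number shared an animal or culture. With the number as a block, 1697 genes were higher and 1423 lower, and no sample pairing was assumed. The block changed no call among the 10 genes: Stim2 had a log2 ratio of 0.22 (edgeR adjusted p = 0.0470) and Ryr1 one of -0.75 (edgeR adjusted p = 0.0699).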
